A study of Mus musculus with 23 samples.

Results

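The comparison described here is Con-FMT against Sa in the first of 2 sets of mouse small intestine RNA-seq libraries, and it holds 5 of the 23 samples of the series: 3 Con-FMT and 2 Sa. All donors of this RNA were male ICR mice that received 1 injection of busulfan, an alkylating chemotherapy drug that damages the gut lining, at 40 mg/kg when 3 weeks old. From the next day the Sa mice were gavaged with saline, and the Con-FMT mice with a fecal microbiota transplant (FMT), here the pooled small intestinal contents of donor mice gavaged with water as the vehicle, daily for 1 week; after 1 more week without dosing the tissue was taken at 5 weeks of age. Con-FMT is thus the transplant without alginate oligosaccharide, and the question is what this transplant changed in the busulfan-treated intestine. The pooled contents had been frozen in glycerol and were then diluted in saline, whereas the Sa mice received saline. The code I1WB_IMC was read as Con-FMT, and the sets are the numbers in the sample codes, whose meaning is not given. The paper's schedule names no sets, so the ages and times above were assumed to hold for set 1. Those of set 2 are not known. Set 2 holds 3 Sa and 3 Con-FMT libraries of its own and served as a separate look. No label ties a library to a mouse, a cage or a litter, so the p-values below measure only the spread between these libraries, and 1 donor pool stands behind the whole Con-FMT group.

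1 of the 2 Sa samples has an ambiguous source. Sa replicate 3 carries one column name in its title and another in its description, and both columns exist, so each comparison was made 2 times, with the title column and with the description column, and the text describes genes that moved alike both ways. The 2 comparisons share Sa replicate 1 and all Con-FMT libraries and are not independent. The title column stood apart from the other libraries: the deviation of its genes from the median library followed GC content with a rank correlation of 0.69 (between -0.10 and 0.17 in the other 5 columns), and its correlation with the Con-FMT libraries was 0.954 to 0.960, against 0.981 to 0.987 for the other Sa columns. Deviations also followed gene length, with rank correlations of -0.46 and -0.27 for the title column and Sa replicate 1 against 0.0017 to 0.36 in the Con-FMT libraries. Values are FPKM, fragments scaled to gene length and to the fragments mapped in the library, whose sums ran from 564817 to 667957 per column. The number of reads behind them is unknown.

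The label says small intestine, and the markers were those of its epithelium. Vil1, which bundles actin in microvilli, stood at 575 to 715 FPKM in all 6 columns, the Paneth cell lysozyme Lyz1 at 3531 to 4697 and the goblet cell mucin Muc2 at 235 to 375. The smooth muscle myosin Myh11 and the fibroblast collagen Col1a1 did not exceed 0.01 and 0.1 FPKM, the endothelial Cdh5 was listed at 0 throughout, and the macrophage marker Adgre1 reached 0.05 at most. The defining transcripts of muscle, stroma and macrophages were thus at or near 0.

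Most of the 37 genes called higher with both Sa columns, in the test given below, stand in interferon lists. Interferons of type I and type III are secreted when sensors inside the cell detect foreign nucleic acid. Type I and type III interferons act through the kinases Jak1 and Tyk2 on a complex that holds STAT2 and IRF9 and binds the interferon-stimulated response element (ISRE), switching on antiviral effectors, while interferon gamma acts on gamma-activated sequences (GAS) and drives, among others, the guanylate-binding GTPases. In the intestine the epithelium responds mainly to type III interferon, and commensal microbes and viruses are known to keep a low level of this response running.

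37 genes rose and 3 fell with both columns in limma's test on log2(FPKM + 1), with Benjamini-Hochberg adjustment over 11337 genes and a threshold of 0.05. These are 0.326% and 0.0265% of the genes tested. The 2 columns gave very different totals. The title column called 2011 genes higher (17.7%) and 1040 lower (9.17%) in Con-FMT, whereas the description column called 42 higher (0.37%) and 3 lower (0.0265%). Of the 45 called with the description column, 5 were not called with the other, namely Parp10, Tapbp, Tor3a, Trex1 and the phosphate transporter Slc34a2, named here after their values were seen. Among the 37 that rose, the log2 change was 0.28 to 1.68 with the title column (median 0.76) and 0.25 to 1.39 with the description column (median 0.54), against medians over all genes tested of 0.05 and 0.00. In each of the 37 the lowest Con-FMT library lay above the highest Sa column, by 1.08 to 1.97 times (median 1.23); such separation was seen in 9.39% of all genes tested upwards and 8.74% downwards. Sa replicate 1 was the highest Sa column for 36 of the 37. 23 of the 37 stand in interferon lists that were compiled with earlier results of these data known.

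**Figure D1:**
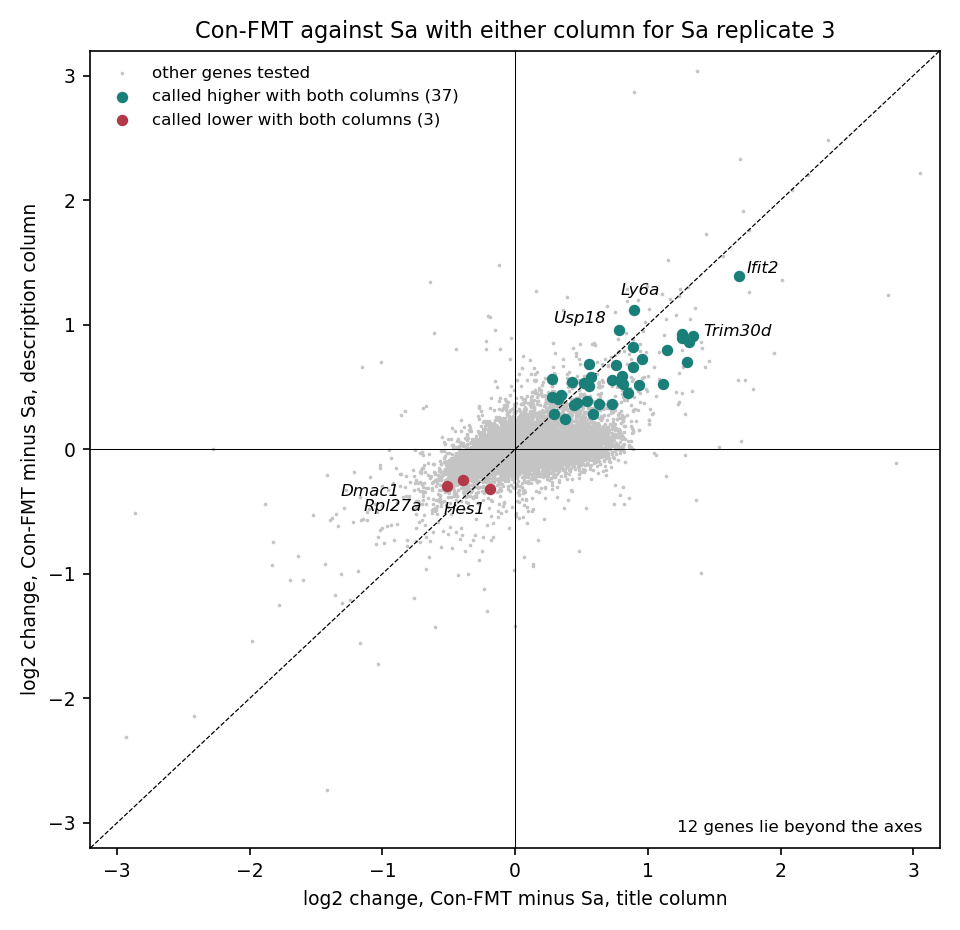
Log2 change of every gene tested, Con-FMT minus Sa in set 1, with the title column for Sa replicate 3 on the x axis and the description column on the y axis; green points are the 37 genes called higher and red points the 3 called lower with both, and 12 genes lie beyond the axes. The grey cloud is stretched along the x axis, which is the wider spread with the title column, and the green points sit at its upper right, from 0.25 to 1.39 on the y axis.

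These calls need the spread shared over all 23 libraries. With 2 libraries against 3 an exact permutation test of a single gene cannot go below p = 0.1, and limma fitted on the 2 groups alone called 0 genes both ways (404 at an unadjusted p under 0.05 in the same direction). Leaving out Con-FMT replicate 1 left 0 genes both ways (774 unadjusted), without Sa replicate 3 there were 0 higher and 1 lower, without Con-FMT replicate 3 there were 1 and 1, without Con-FMT replicate 2 there were 45 and 3, and without Sa replicate 1 there were 77 and 24. With the GC and length trends taken out, 27 of the 36 genes that had a known composition were still called higher both ways. Without Sa replicate 3 the median change of the 37 was 0.38.

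The promoters of some of the 37 genes hold the core letters of the response element. A search of RefSeq promoters of 300 bases (250 before to 50 after each start, build GRCm38.p6) found promoters for 30 of the 37 genes, and 13 of these (43.3%) held the ISRE core (GAAA, NN and GAAA in a row, N being any base) on either strand, whereas 327 of the 8599 tested genes with a promoter did (3.8%). The GAS letters TTCNNNGAA were found in 4 of the 30 (13.3%), against 8.2% of tested genes. Of the 3 genes called lower, 2 had a promoter and 1 of these held the ISRE core. Several genes that rose had no core upstream of the start, Ifit2, Oasl2 and Ifih1 among them. A match of letters is no proof of binding. The 5 stretches shown lie upstream of the start of genes that rose, are written in the direction of transcription, and carry the matched core, read on either strand, in capitals. They are Ifit1 on the plus strand at chr19:34640773-34640832, Gbp7 on the plus strand at chr3:142530271-142530330, Gm12250 on the plus strand at chr11:58183740-58183809, Oas3 on the minus strand at chr5:120777687-120777746 and Stat2 on the plus strand at chr10:128270264-128270323.
Ifit1: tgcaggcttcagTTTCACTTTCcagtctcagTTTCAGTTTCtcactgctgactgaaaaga
Gbp7: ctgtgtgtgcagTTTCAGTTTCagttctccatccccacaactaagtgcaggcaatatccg
Gm12250: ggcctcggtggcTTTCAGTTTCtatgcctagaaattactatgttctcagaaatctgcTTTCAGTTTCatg
Oas3: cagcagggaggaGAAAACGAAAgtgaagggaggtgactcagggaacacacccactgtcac
Stat2: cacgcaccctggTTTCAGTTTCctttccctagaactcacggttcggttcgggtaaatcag
Ifit1 and Gm12250 each show the core in 2 copies, and 3 of the 5 stretches, those of Gbp7, Gm12250 and Stat2, share the first 10 capitals TTTCAGTTTC. The last match ends 75 bases before the start in Ifit1, 43 in Gbp7, 36 in Gm12250, 65 in Oas3 and 212 in Stat2.

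The sensors of foreign RNA are the head of the pathway. Ifih1 encodes MDA5, a cytosolic sensor of long double-stranded RNA. It measured 28.2 FPKM in Sa replicate 1, 11.5 in the title column and 20.9 in the description column, against 31.6, 34.2 and 35 in Con-FMT replicates 1 to 3. The groups did not overlap, although the gap to Sa replicate 1 was narrow, and the rise was 0.85 ± 0.20 (log2, SE) with the title column and 0.45 ± 0.09 with the description column (limma adjusted p = 0.0257 and 0.0434). Ddx60, a helicase that aids RNA sensing, stood at 27.4, 7.82 and 15.4 FPKM in the Sa columns and at 38.9, 34.9 and 41.3 in Con-FMT. It rose by 1.31 ± 0.28 and 0.86 ± 0.16 (limma adjusted p = 0.0257 and 0.0228). In a list of 13 tested sensors and adaptors, written after the values had been seen, 8 rose with the title column, 2 with the description column and 2 with both. The shares called higher over all genes tested were 17.7%, 0.37% and 0.326%. Because the list was written with the calls known, its counts cannot be weighed against these shares. Dhx58 (LGP2) and Zbp1 also lay above every Sa column but had limma adjusted p-values of 0.0782 and 0.123 with the description column. The adaptor genes Mavs, Ticam1 and Myd88 had changes between -0.17 and 0.15 and were called with neither column.

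Of the factors that carry the signal, Stat2, a subunit of the complex that binds the ISRE, rose with both columns. It measured 29.3 FPKM in Sa replicate 1, 18.6 in the title column and 23.7 in the description column, and 41.6, 36.0 and 40.6 in the Con-FMT libraries. All 3 Con-FMT libraries were above all Sa columns, with log2 changes of 0.73 ± 0.12 and 0.56 ± 0.08 (limma adjusted p = 0.0212 and 0.0127). Irf9, the DNA-binding subunit, stood at 26.8 to 30.1 FPKM in Sa and 29.99 to 32.3 in Con-FMT and was called with neither column. Irf7, which amplifies type I interferon production, stood at 206, 185 and 119 FPKM in Sa and 229 to 250 in Con-FMT, with limma adjusted p-values of 0.0709 and 0.137.

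**Figure D2:**
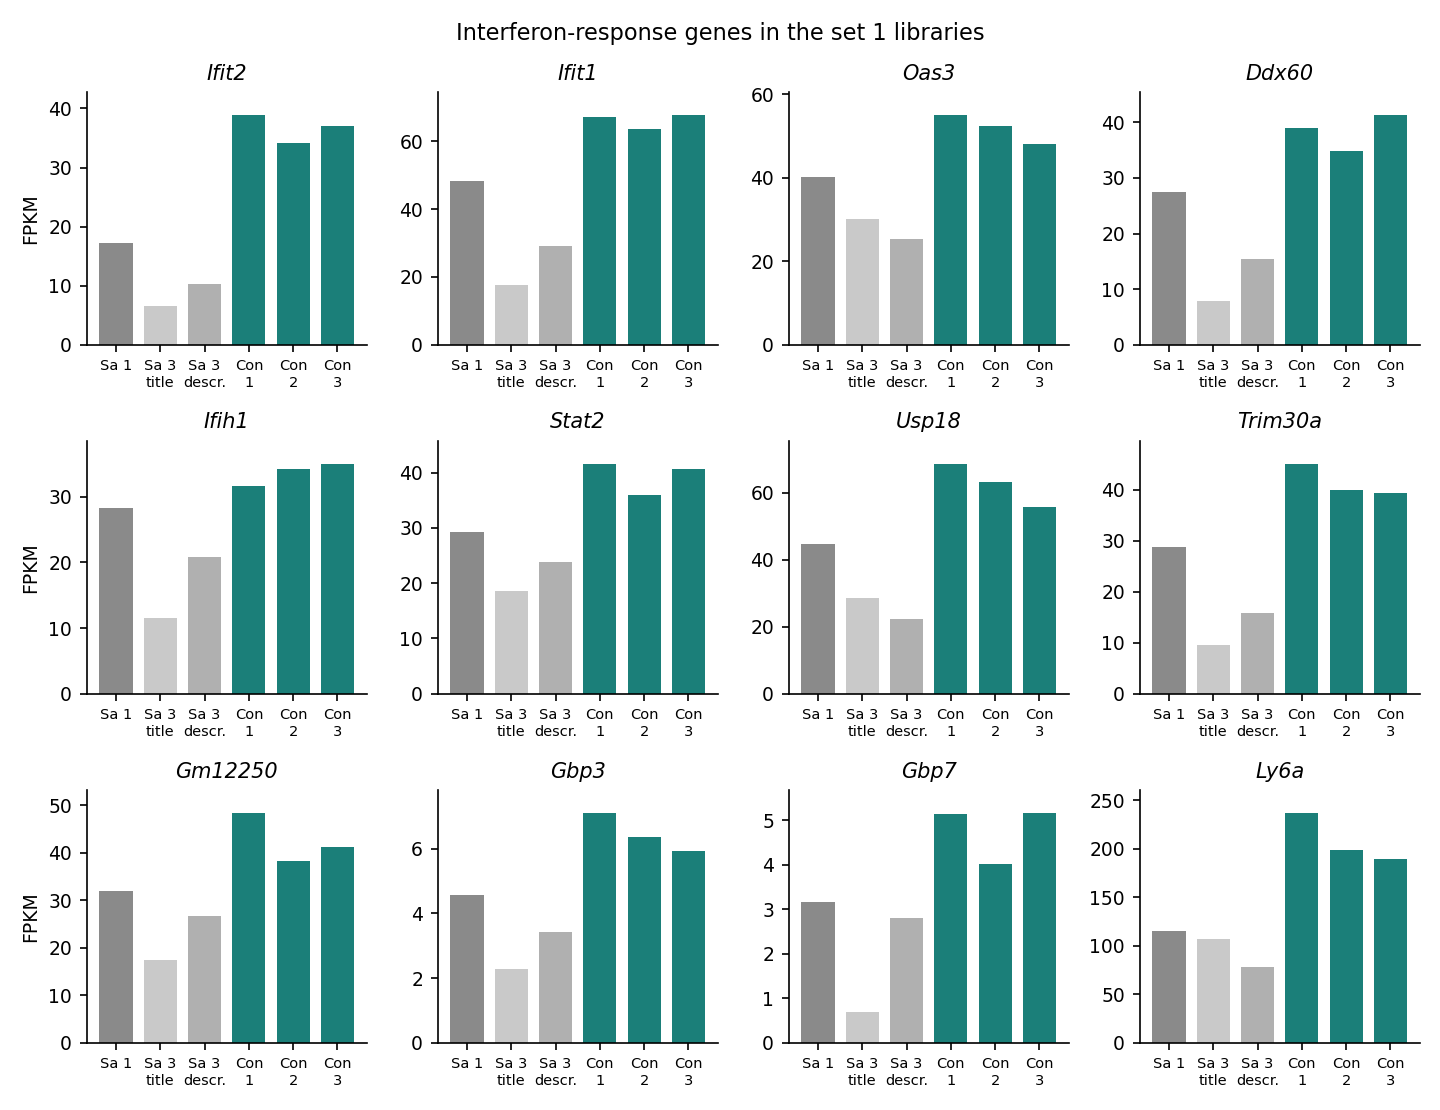
FPKM of 12 genes that rose with both Sa columns, 1 bar per library of set 1 (no error bars, since each bar is a single library); grey bars are Sa replicate 1 and the 2 candidate columns of Sa replicate 3, and green bars are Con-FMT replicates 1 to 3. In each panel the 3 green bars stand above the 3 grey ones, and Sa replicate 1 is the grey bar nearest to them.

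IFIT genes on chromosome 19, whose proteins bind viral RNA and block its translation, rose too, and Ifit2 had the highest change of the 37 genes with either column. Ifit2 (34550550-34576534) stood at 17.3, 6.51 and 10.3 FPKM in the Sa columns and at 38.9, 34.1 and 37.0 in Con-FMT. Even the lowest Con-FMT library was 1.97 times Sa replicate 1, and the log2 change was 1.68 ± 0.29 with the title and 1.39 ± 0.23 with the description column (limma adjusted p = 0.0212 and 0.0139). Ifit1 (34640889-34650009) went from 48.4, 17.6 and 29.2 to 67.1, 63.6 and 67.8 FPKM, a rise of 1.15 and 0.80. Its paralog Ifit1bl1, the most abundant of the 3, went from 171, 63.5 and 106 to 227, 265 and 263 FPKM, a rise of 1.26 and 0.89. The annotated span of Ifit1bl1 (34592888-34662981) encloses Ifit1, and the strand setting of the counting is not given, so reads of this pair may have been shared. Ifit3 was 57.1, 53.3 and 52.9 FPKM in Con-FMT against 37.8, 19.3 and 18.3 in Sa, and its limma adjusted p was 0.0257 with the title column but 0.0734 with the description column.

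The OAS and OAS-like genes, some of which make the second messenger that activates RNase L, were split. Oas3 rose from 40.1, 30.1 and 25.3 to 55.0, 52.3 and 48.1 FPKM, by 0.56 ± 0.10 and 0.68 ± 0.12 (limma adjusted p = 0.0212 and 0.0228), and here the description column was the lowest. Oasl2 rose from 187, 125 and 124 to 238, 218 and 227 FPKM, by 0.57 and 0.58. Oas2 and Oasl1 were also above every Sa column but had limma adjusted p-values of 0.171 and 0.0678 with the description column, and Oas1a, at 112 to 175 FPKM in Sa and 159 to 183 in Con-FMT, overlapped.

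3 of the 37 genes encode ADP-ribosyltransferases, Parp9, Parp12 and Parp14. Parp14, Dtx3l and Parp9 are neighbours on chromosome 16, between 35831892 and 35972621, and the annotated spans of Dtx3l and Parp9 overlap, so their reads may be shared. Parp9 and the ubiquitin ligase Dtx3l work as a complex in interferon signalling and DNA repair. Parp14 went from 41.3, 17.7 and 32.3 FPKM in Sa to 53.5, 49.5 and 55.8 in Con-FMT, Dtx3l from 36.4, 18.8 and 32.0 to 44.4, 42.7 and 45.3, and Parp9 from 59.8, 35.7 and 55.1 to 70.3, 68.8 and 71.1. With the description column their rises were 0.52, 0.36 and 0.28 (limma adjusted p = 0.0127, 0.0127 and 0.019), about 2 times smaller than with the title column (0.94, 0.73 and 0.59). Parp12, on chromosome 6, differed little between the columns, with 57.8, 48.6 and 41.5 FPKM in Sa and 75.03, 71.7 and 68.2 in Con-FMT, and rose by 0.43 ± 0.07 and 0.54 ± 0.09 (limma adjusted p = 0.0212 and 0.0127).

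Among the guanylate-binding and immunity-related GTPases, which attack the vacuoles of intracellular pathogens, 4 of the 15 tested rose both ways. Gm12250 (Irgb10) stood at 31.9, 17.4 and 26.6 FPKM in Sa and at 48.4, 38.2 and 41.1 in Con-FMT, a rise of 0.82 and 0.53. The others were low in level: Gbp3 went from 4.57, 2.27 and 3.42 to 7.11, 6.38 and 5.92 FPKM, Gbp7 from 3.17, 0.69 and 2.81 to 5.14, 4.02 and 5.16, and Gbp9 from 1.36, 0.40 and 0.93 to 2.61, 1.96 and 2.58. 11 of the 15 rose with the title column, and 12 lay above every Sa column, including Irgm1 at 145, 122 and 114 FPKM against 104, 59.8 and 91.8 (limma adjusted p = 0.149 with the description column). Of all genes tested, 17.7% were called higher with the title column, 0.326% with both, and 9.39% lay above every Sa column. The 4 calls both ways became 0 without Sa replicate 3, Con-FMT replicate 1 or Con-FMT replicate 3, and the list's median, 0.84 and 0.54, was 0.46 without Sa replicate 3. Reads of the Gbp genes and of Tgtp1 and Tgtp2 can be split between near-identical copies, so values of single members are uncertain.

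Some genes known to restrain the response were among those that rose. Usp18, the protease that removes ISG15 and blocks the type I interferon receptor, went from 44.7, 28.5 and 22.3 FPKM in Sa to 68.6, 63.4 and 55.9 in Con-FMT, by 0.79 ± 0.17 and 0.96 ± 0.20 (limma adjusted p = 0.0257 and 0.048). Trim30a, a negative regulator of NF-kB signalling, went from 28.7, 9.59 and 15.8 to 45.03, 40.01 and 39.4, by 1.26 ± 0.24 and 0.92 ± 0.15. Its neighbour Trim30d rose by 1.34 and 0.91, and reads may be split between the 2. Trafd1, which limits TLR and RIG-I signalling, rose less but evenly: 52.0, 51.9 and 42.7 FPKM became 62.2, 64.6 and 63.0 (0.28 ± 0.05 and 0.42 ± 0.07). Adar, which edits double-stranded RNA and so hides it from MDA5, went from 31.7, 29.7 and 26.4 to 41.9, 37.6 and 36.4 (0.32 ± 0.06 and 0.40 ± 0.06). Atf3, a stress-induced repressor, went from 5.27, 4.15 and 4.69 to 9.28, 9.07 and 10.3 (0.89 ± 0.16 and 0.82 ± 0.15), a change of nearly the same size with either column. In a list of 8 such brakes, written after the values had been seen, these 5 were called both ways, and Socs1, Socs3 and Pias1 with neither column. The share called higher both ways over all genes tested was 0.326%. Since the list was written with the calls known, its count cannot be weighed against that share.

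The remaining genes that rose include several of the known interferon targets. Ly6a (Sca-1), a surface protein of lymphocytes and of regenerating crypts, was the most abundant after Ifit1bl1 and Oasl2, with 115, 107 and 78.4 FPKM in Sa and 237, 199 and 190 in Con-FMT. Its change was 0.90 ± 0.20 and 1.12 ± 0.22 (limma adjusted p = 0.0257 and 0.0306). Rnf213, a giant ubiquitin ligase that coats intracellular bacteria, went from 47.2, 28.4 and 39.6 to 82.6, 59.6 and 76.3. Herc6, the mouse ligase for ISG15, went from 13.6, 3.50 and 9.22 to 17.3, 18.6 and 21.0, and Cmpk2, a mitochondrial nucleotide kinase, from 38.7, 22.3 and 25.2 to 49.1, 49.6 and 52.99. Znfx1, Helz2, Trim34a and Tdrd7, all known to be interferon-inducible, rose by 0.36 to 0.54 with the description column. Mier3, Agrn, Sowahb, Arel1 and D5Ertd579e stand on no interferon list, and their rises with that column were 0.36, 0.44, 0.28, 0.25 and 0.37. In set 2 their changes were 0.04, 0.08, 0.05, 0.06 and 0.02, and the groups overlapped there. For Sowahb the Con-FMT libraries of set 1 read 19.95, 21.4 and 21.4 FPKM and the Sa columns 17.3, 16.4 and 16.8. 1 further transcript, known only by the sequencing provider's own number, completed the 37.

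**Figure D3:**
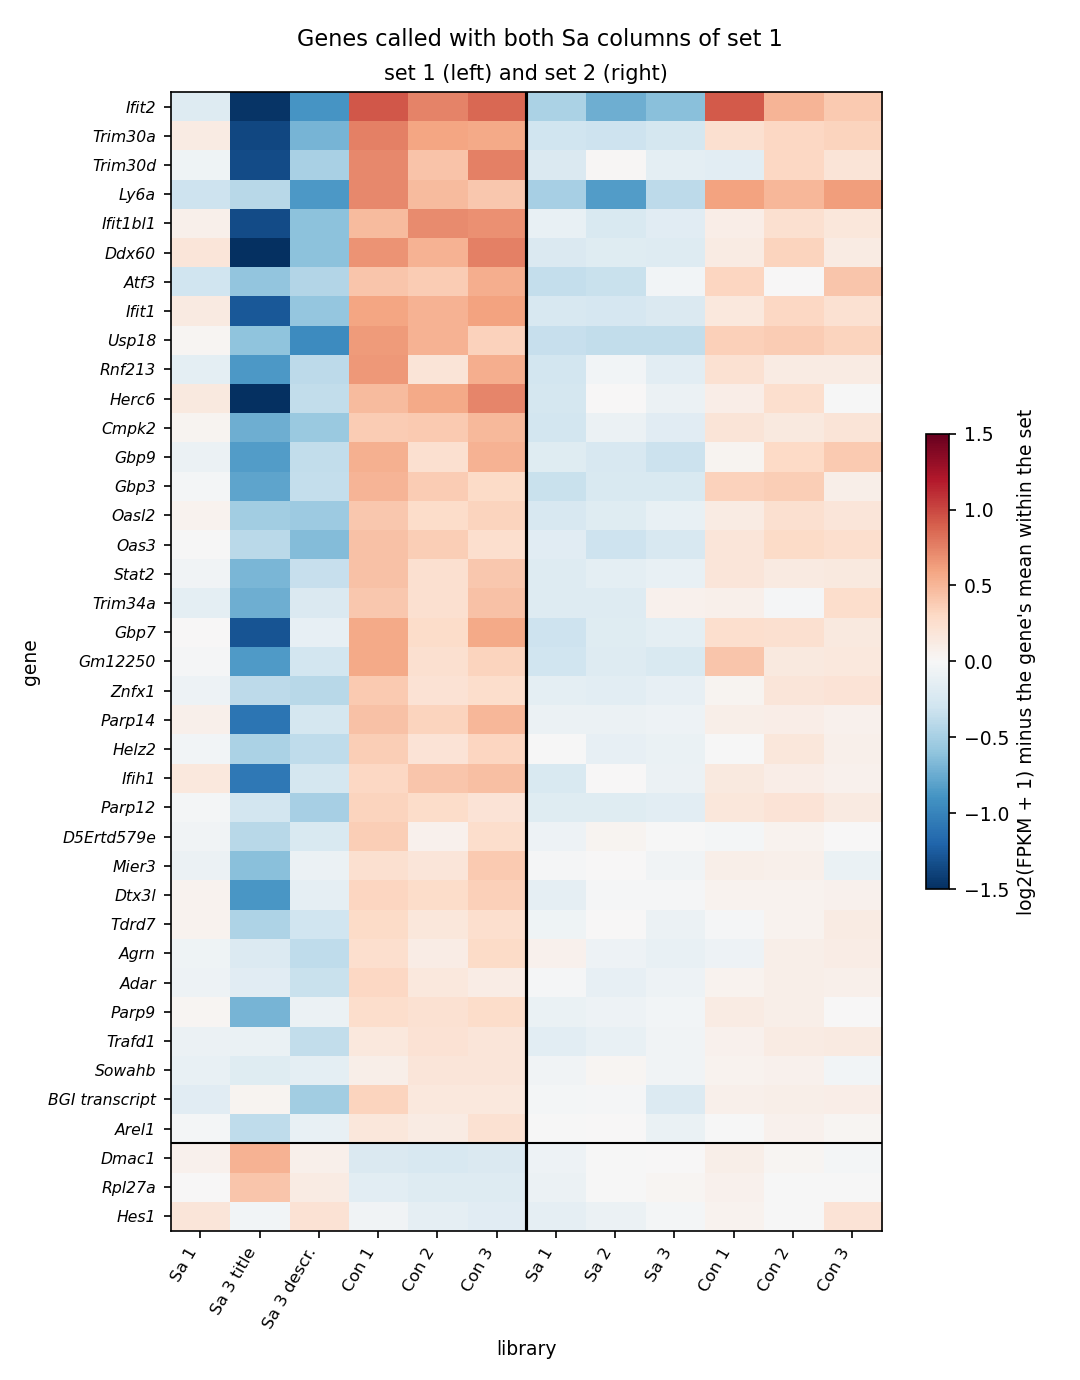
Heat map of log2(FPKM + 1) minus the gene's mean within its set for 36 genes called higher (above the line) and the 3 called lower (below it) with both Sa columns, in the 6 columns of set 1 and the 6 libraries of set 2; colours end at -1.5 and 1.5. In set 1 the title column is the deepest blue for 26 of the 36 genes, and the red of the Con-FMT libraries returns in paler form in the Con-FMT libraries of set 2.

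Set 2 has its own Sa libraries, and its means did not enter the calls of set 1, although its spread did. The change was positive there for 37 of the 37 genes that had risen, against 44.5% of all genes tested. For 28 of them every Con-FMT library lay above every Sa library (6.3% of all genes), and 19 had an unadjusted p under 0.05 upwards (3.15% of all genes). Only Ly6a and Parp12 passed the adjusted threshold in set 2, where 4 genes did in all (0.0353%). Ly6a read 110, 86.9 and 119 FPKM in Sa and 237, 221 and 241 in Con-FMT of set 2, a rise of 1.15 (limma adjusted p = 0.0297). Parp12 read 56.6, 56.4 and 57.6 against 72.6, 74.4 and 70.7, a rise of 0.35 (limma adjusted p = 0.0456). Ifit2 read 16.8, 14.0 and 15.1 against 46.1, 34.4 and 31.5 and was again the gene with the highest change (1.22, limma adjusted p = 0.115), and Usp18 read 37.6, 37.2 and 36.9 against 62.2, 63.2 and 61.2 without overlap (0.72, limma adjusted p = 0.115). The changes in set 2 ran from 0.02 to 1.22 with a median of 0.30, and in 36 of the 37 genes they were smaller than the smaller change of set 1. The difference between the sets was itself not called for any of the 37, with lowest limma adjusted p-values of 0.0813 and 0.305 for the title and the description column. Over all genes tested it was called for 1 (0.00882%) and 2 (0.0176%). Since the members were picked for their set 1 values, some shrinkage towards 0 in set 2 is built into the comparison. The other 2 transplant groups of set 1, A10-FMT and A100-FMT, came from donors dosed with alginate oligosaccharide. The dose was lower for A10-FMT and higher for A100-FMT. Both groups share the Sa libraries with Con-FMT. Ifit2 ran from 24.4 to 30.7 FPKM in A10-FMT and from 27.9 to 48.5 in A100-FMT, and Usp18 from 64.0 to 77.4 and 58.9 to 66.9, all above the 3 Sa columns.

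**Figure D4:**
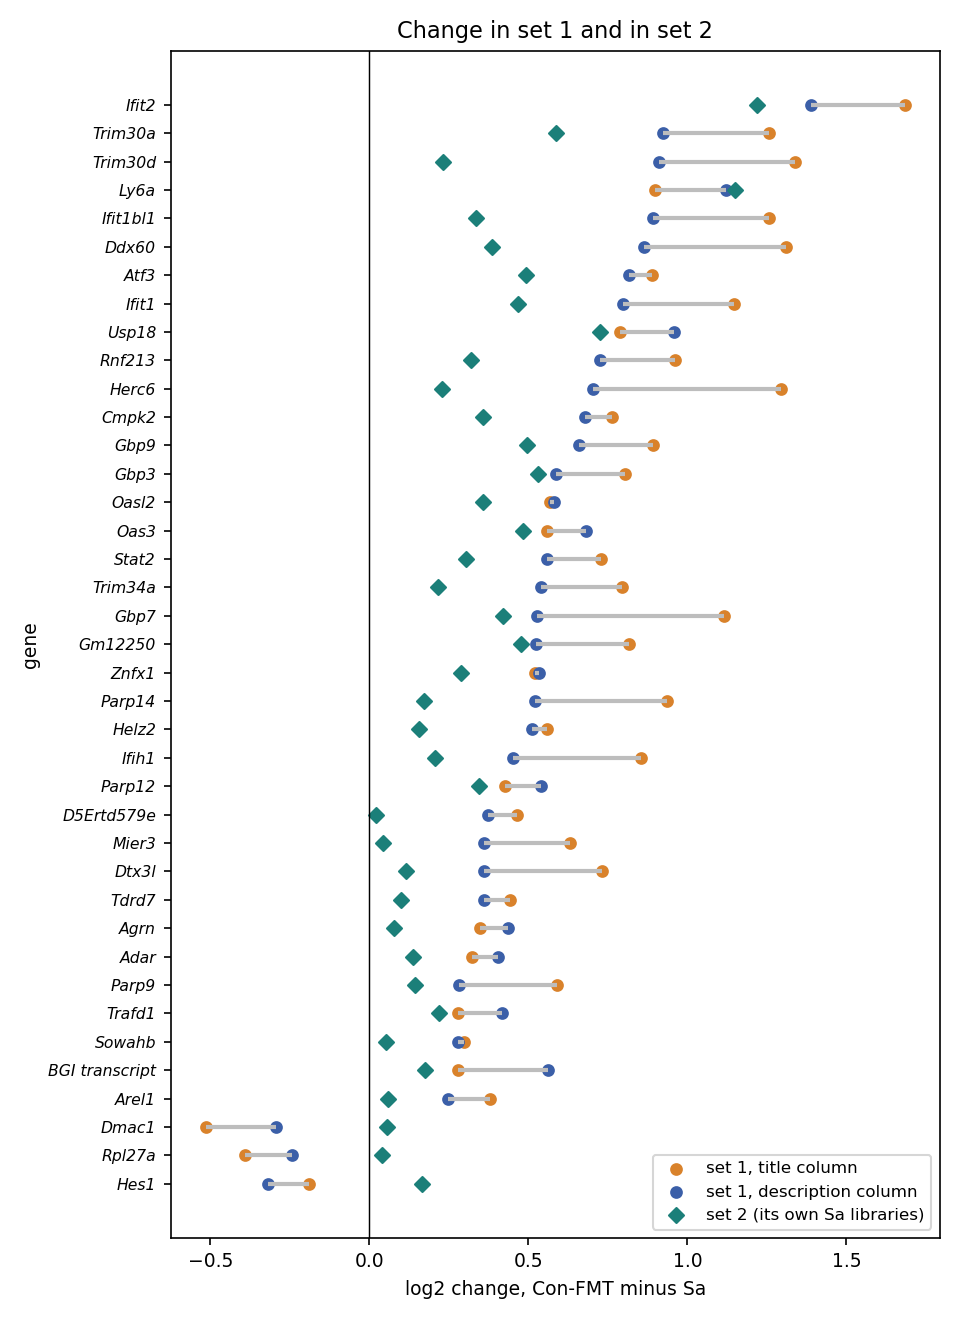
Log2 change, Con-FMT minus Sa, of 39 genes called with both Sa columns; orange and blue points are set 1 with the title and the description column, and green diamonds are set 2, which has its own Sa libraries. All 36 genes above the fallen ones have their diamond to the right of 0, mostly left of both set 1 points, and the 3 genes that fell in set 1 have theirs at 0.04 to 0.16.

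The wider interferon lists were compiled with earlier results of these data known. They include the called members, so their medians, sums and counts in part restate those genes. Of 55 tested interferon-stimulated antiviral genes, 37 rose with the title column, 20 with the description column and 19 with both, and 0 fell. By comparison, 17.7% of all genes tested were called higher with the title column, 0.37% with the description column and 0.326% with both. The median change was 0.58 and 0.51, and 39 of the 55 lay above every Sa column, as did 9.39% of all genes tested. Summed over the list, Sa read 3738, 3303 and 2724 FPKM and Con-FMT 4625, 4701 and 4498. In set 2 the median change was 0.35, 52 of 55 were positive (44.5% of all genes tested) and 44 lay above every Sa library (6.3%). Among members not called both ways, Isg15, the ubiquitin-like modifier of this response, read 161, 132 and 95.0 FPKM in Sa and 234, 211 and 221 in Con-FMT (limma adjusted p = 0.0278 and 0.0906), and Rsad2 (viperin) read 8.52, 3.31 and 4.18 against 14.4, 10.48 and 17.5 (0.0257 and 0.0803). The highly expressed Ifitm3 and Lgals3bp overlapped between the groups. Without Sa replicate 3 the list's median was 0.28. The 19 calls became 0 without Sa replicate 3 or Con-FMT replicate 1, 1 without Con-FMT replicate 3 and 33 without Sa replicate 1.

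Schlafen genes, interferon-induced regulators of T cell quiescence and of viral protein synthesis, showed the same picture with weaker calls. All 4 tested rose with the title column (17.7% of all genes tested did) and 0 with the description column, with medians of 0.99 and 0.73. Without Sa replicate 3 the median was 0.47, and the 4 calls with the title column became 0 without Sa replicate 3, Con-FMT replicate 1 or Con-FMT replicate 3. Slfn4 read 4.45, 0.50 and 2.70 FPKM in Sa and 10.4, 7.69 and 14.4 in Con-FMT, a change of 2.01 and 1.36, with limma adjusted p-values of 0.0257 and 0.0517. Slfn2 read 39.0, 29.1 and 30.1 against 60.4, 54.0 and 51.9 (0.0257 and 0.0517).

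The antigen presentation lists also held 0 genes called both ways. In the immunoproteasome and peptide-loading list 4 of 17 rose with the title column and 1, the peptide editor Tapbp, with the description column. The shares called higher over all genes tested were 17.7% and 0.37%. Ubd (FAT10), a ubiquitin-like tag, had the list's highest change: 5.23, 3.73 and 8.43 FPKM in Sa and 22.6, 12.6 and 18.6 in Con-FMT (1.76 and 1.26, limma adjusted p = 0.0257 and 0.157). The proteasome subunits Psmb8, Psmb9 and Psmb10 overlapped between the groups. Of 15 MHC class I genes 0 were called with either column, and H2-K1 read 192, 342 and 147 FPKM against 372, 200 and 285. Of 8 MHC class II genes 1 was called, with the title column.

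Interferon transcripts themselves were close to 0 in these libraries. The 7 listed interferon genes found in the table were all below the filter of a mean of 1 FPKM and summed to 0.00 to 0.20 FPKM in the Sa columns and 0.14 to 0.90 in Con-FMT. Ifnl3, a type III interferon, was listed at 0 in the 3 Sa columns and at 0.07, 0.53 and 0.17 FPKM in Con-FMT, a level too low to test. The receptor genes were called with neither column: Ifnar1 read 7.49 to 8.30 FPKM in Sa and 8.17 to 8.93 in Con-FMT, Ifnlr1 read 2.80 to 3.85 and 3.71 to 3.82, and Ifngr1 read 62.3 to 73.0 and 58.7 to 67.3. 2 of the 9 tested genes for receptors and their kinases, Jak1 and Jak2, rose with the title column, and 0 with the description column. That list was written after the values had been seen, and 17.7% of all genes tested were called higher with the title column.

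Other cells that could carry interferon-induced transcripts were looked for by their markers, and their part in the result was not tested. Of 20 macrophage and dendritic cell genes 2 passed the filter, and the list summed to 28.0 to 39.0 FPKM in Sa and 32.4 to 43.0 in Con-FMT. Adgre1 and Csf1r did not exceed 0.05 FPKM in any column. The pan-leukocyte gene Ptprc read 0.54, 0.28 and 0.67 FPKM in Sa and 0.91, 0.54 and 1.69 in Con-FMT. Of 36 T cell and cytotoxic genes 10 passed the filter and 0 were called; the list summed to 88.8 to 105 FPKM in Sa, 69.7 and 70.4 in Con-FMT replicates 1 and 2, and 160 in Con-FMT replicate 3, where granzyme A (Gzma) alone read 72.9. Their median change was -0.09 and 0.01 in set 1. In set 2, where the interferon genes also read higher in Con-FMT, the change was positive for 10 of the 10 tested T cell genes, with a median of 0.75, and the list summed to 68.0 to 121 FPKM in Sa and 88.2 to 264 in Con-FMT. The part of these cells in the set 2 values was not tested. The B cell marker Ms4a1 reached 0.09 at most.

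**Figure D5:**
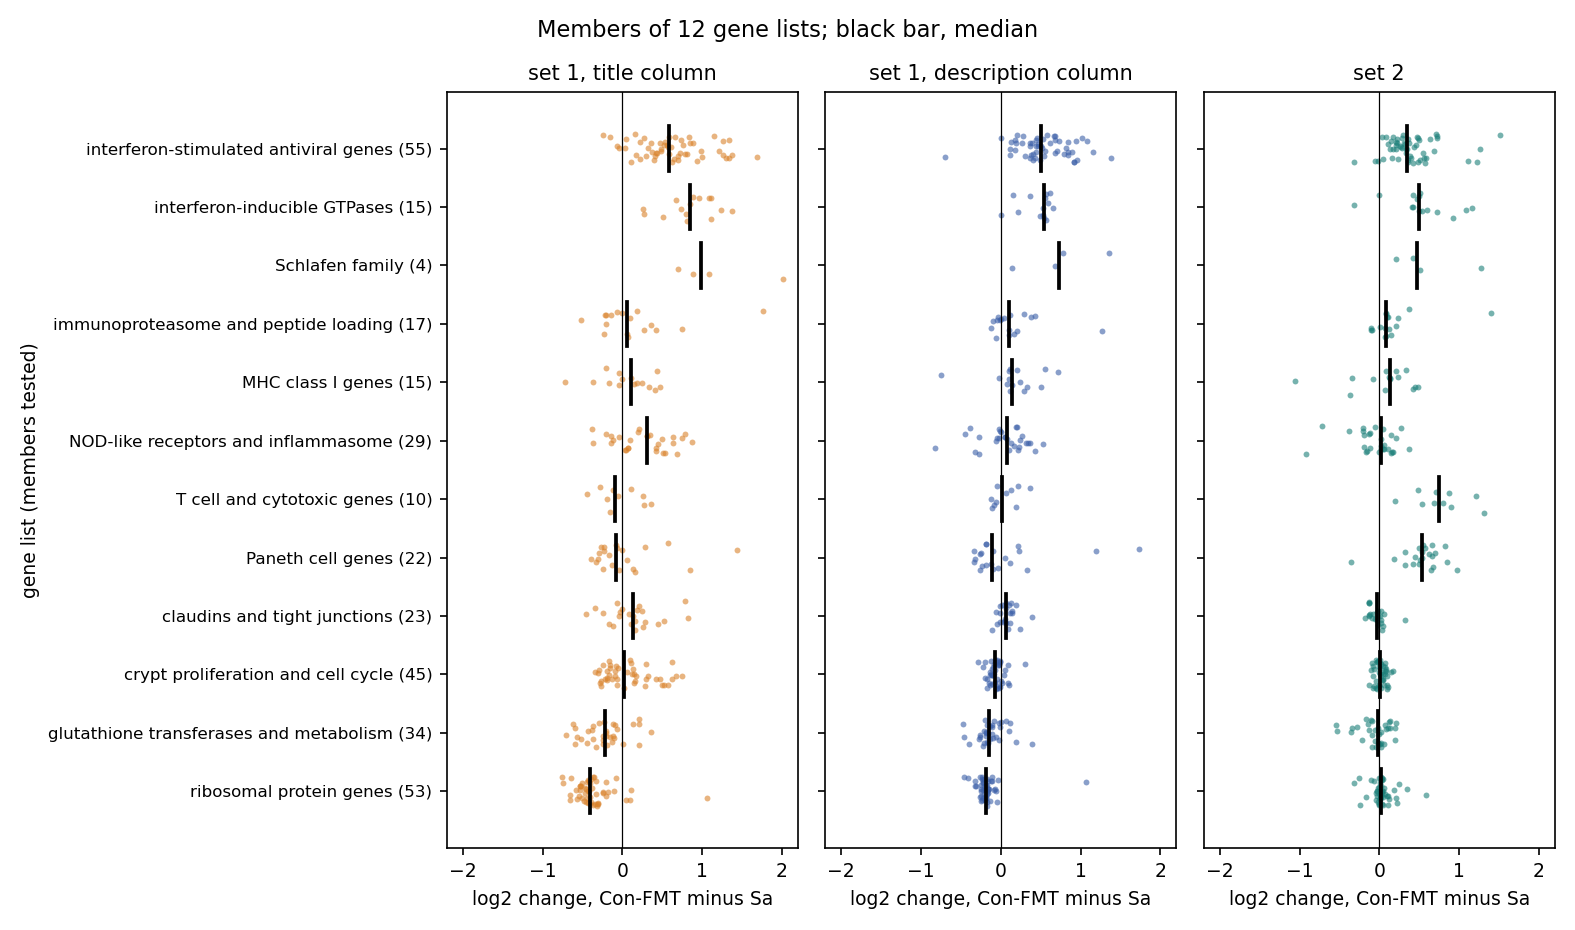
Log2 change, Con-FMT minus Sa, of each tested member of 12 gene lists in set 1 with the title column (orange), in set 1 with the description column (blue) and in set 2 (green); the black bar is the list's median and 4 points lie beyond the axes. The 3 interferon lists at the top lie to the right of 0 in all panels, whereas the ribosomal protein genes at the bottom lie to the left of it in set 1, with medians of -0.41 and -0.18, and at 0.02 in set 2.

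3 genes fell both ways. Rpl27a, a protein of the large ribosomal subunit, read 680, 908 and 740 FPKM in Sa and 609, 593 and 595 in Con-FMT, a change of -0.39 ± 0.08 and -0.24 ± 0.05 (limma adjusted p = 0.0257 and 0.0431). Dmac1, an assembly factor of mitochondrial complex I, read 41.6, 57.9 and 42.3 against 34.2, 33.7 and 34.3 (-0.52 ± 0.09 and -0.29 ± 0.05, limma adjusted p = 0.0212 and 0.0228). Hes1, the Notch target that steers crypt cells away from the secretory fate, read 45.3, 38.8 and 46.6 against 38.4, 36.3 and 35.3 (-0.19 ± 0.07 and -0.32 ± 0.06, limma adjusted p = 0.049 and 0.0155); with the title column the gap between the groups was under 1 FPKM. In set 2 none of the 3 had a negative change.

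Ribosomal protein genes as a list leaned the same way in set 1. Of 53 listed, which do not include Rpl27a, 38 fell with the title column and 0 with the description column. The medians were -0.41 and -0.18, and 35 lay below every Sa column. Of all genes tested, 9.17% were called lower with the title column and 8.74% lay below every Sa column. Rplp0 read 1536, 2358 and 1616 FPKM in Sa and 1467, 1458 and 1348 in Con-FMT. With the GC and length trends taken out, 11 fell with the title column and the medians were -0.20 and -0.11. In set 2 the ribosomal median was 0.02, and 37 of 53 were positive. Glutathione genes, which serve detoxification, also read lower: 10 of 34 fell with the title column and 0 with the description column, with medians of -0.22 and -0.15. With the GC and length trends taken out these medians were -0.11 and -0.07, and in set 2 the median was -0.02, with 15 of 34 positive. Gpx1, the peroxidase, read 488, 675 and 498 FPKM in Sa and 414, 404 and 444 in Con-FMT (limma adjusted p = 0.0257 and 0.0882).

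Lists of junction, microvillus, nutrient transport, bile acid, fat, sterol, goblet, Paneth, enteroendocrine, cell cycle and p53 target genes held no gene called both ways. With the title column 8 of 23 tight junction genes rose and 2 fell, as did 7 and 2 of 21 genes of adherens junctions, desmosomes and connexins, 5 and 2 of 27 microvillus genes and 9 and 3 of 45 cell cycle genes, where 17.7% of all genes tested were called higher and 9.17% lower. With the description column 0 genes of these 4 lists were called. The medians of the junction lists were 0.14 for both with the title column, 0.07 and 0.06 with the description column, and -0.03 and -0.08 in set 2. Vil1 read 660, 657 and 575 FPKM in Sa and 674, 673 and 715 in Con-FMT (0.06 and 0.16, limma adjusted p = 0.498 and 0.394). E-cadherin (Cdh1) read 240, 233 and 244 against 260, 258 and 264, and p120-catenin (Ctnnd1) 106, 99.3 and 108 against 115, 120 and 119. For all 3 the groups did not overlap, but the limma adjusted p-values were 0.0597 or higher, and in set 2 the changes were between -0.08 and -0.02. Ocln and Tjp1, the tight junction genes, rose with the title column (0.29 and 0.45, limma adjusted p = 0.0405 and 0.0337) and changed by 0.05 and 0.06 with the description column. Bcl2l1, whose protein was blotted in the study, overlapped between the groups. Of 29 genes for NOD-like receptors and the inflammasome, 12 rose and 1 fell with the title column, and 0 were called with the description column.

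Outside the interferon response, the widest gaps were in defensin genes, and they came from 2 libraries. A ratio of means of at least 2 with both columns and without overlap was met by 19 genes upwards (0.168%) and 8 downwards (0.0706%). Defa42 read 0, 0 and 0.38 FPKM in the Sa columns and 3.88, 773 and 440 in Con-FMT. Defa21, Defa2 and Defa32, paralogs of this Paneth cell peptide family, had the same shape, with 1.94 to 4.75 FPKM in Con-FMT replicate 1 and 160 to 611 in replicates 2 and 3. Their limma adjusted p-values were 0.10 or higher with either column. Across the 23 libraries Defa42 was over 100 FPKM in 8 and under 10 in 12, and in set 2 it was 970, 44.5 and 5 in Sa and 0.68, 68.3 and 881 in Con-FMT, so high and low libraries occurred in both groups. Reads of such copies may be assigned to one or another of them. Cyp3a13, a drug-metabolising P450, went from 34.2, 15.9 and 23.5 to 52.8, 71.6 and 56.4 FPKM (1.32 and 1.05, limma adjusted p = 0.0257 and 0.0606) and by 0.11 in set 2. The chemokine Cxcl10, itself an interferon target, read 0.70 to 0.74 FPKM in Sa and 3.05, 0.98 and 3.03 in Con-FMT (limma adjusted p = 0.0281 and 0.161). Lower in Con-FMT were the antimicrobial Lcn2, at 3.55 to 3.78 FPKM in Sa and 2.72, 2.07 and 1.04 in Con-FMT, and the glutathione transferase Gstm2, at 33.1, 40.1 and 32.9 against 23.1, 22.6 and 24.6, neither of which was called. Scpep1, a peptidase, read 5.81, 0.24 and 6.71 in Sa and 0.04 to 0.11 in Con-FMT. In set 2 it ranged from 0.51 to 8.65 in Sa and from 0.07 to 0.17 in Con-FMT, again without overlap. It was called in neither set, and in A10-FMT of set 1 it ran from 0.15 to 12.3.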

How the data were processed

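The data are 1 table of the whole series with 23 libraries in 8 groups and 19215 entries, of which 17842 carry NCBI gene numbers and 1373 are transcripts named by the sequencing provider. The deposited values are FPKM per gene (the methods state RPKM), made by the authors from HiSeq reads of TRIzol-extracted RNA. The build is mm10 per the labels; the aligner, the counting and its strand setting are not given in the sources used here. FPKM hold no counts, so the authors' DEGseq test could not be repeated, and depth and counting error are unknown. Symbols, gene positions and promoters came from RefSeq tables of GRCm38.p6, the same build.

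Entries whose mean reached 1 FPKM across all 23 columns (11337) entered the test, made with limma 3.58.1 in R 4.3.3: log2(FPKM + 1), 1 mean per group over all 8 groups, moderated with a mean-variance trend, two-sided, Benjamini-Hochberg adjustment over all genes tested, threshold 0.05. The fit used each column for Sa replicate 3 in turn. A fold change on this scale understates the change of low genes. A gene was said to lie above or below every Sa column where the groups did not overlap over Sa replicate 1 and both columns. No 2 columns held identical values. The fit with the title column was tried on simulated data with independent noise for each gene. The simulated data held no GC or length trend, so they cannot show how such trends affect the calls. Genes named are those called both ways; the 15 largest rises and 15 largest falls among the others with the same sign and no overlap; in each list its members among these and the 3 highest; and the genes of proteins the study stained or blotted. Genes named beyond this rule were chosen after their values were seen. The comparison, the 51 gene lists (1179 genes) and their tests were chosen with earlier results of these data known, and 5 further interferon lists were written after the values here were seen. Replicate numbers did not pair the libraries: correlations of same-numbered deviations ran from -0.35 to 0.32. Alternatives were another pseudocount, filters, scalings, smaller fits, array weights, a replicate block, removal of GC and length trends, robust moderation, another threshold and each library left out. No set test was run. Some genes, among them 1 of those called both ways, are not reported here by name; they remain in the counts.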

Additional observations from a re-analysis of the deposited data

Results flagged for a closer look

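2 results were singled out because the effect of Con-FMT differed between set 1 and set 2 in limma's test of that difference. Hes1, the Notch target, fell in set 1 (45.3, 38.8 and 46.6 FPKM in Sa, 38.4, 36.3 and 35.3 in Con-FMT) and read 32.4, 33.5 and 34.9 in Sa and 36.8, 35.6 and 41.1 in Con-FMT of set 2. The change in set 1 minus that in set 2 was -0.48 with the description column (limma adjusted p = 0.0253) and -0.35 with the title column (limma adjusted p = 0.0813). A transcript known only by the sequencing provider's number read 12.9, 12.8 and 9.42 FPKM in Sa and 5.71, 3.41 and 6.74 in Con-FMT of set 1, but 4.19, 2.28 and 3.01 in Sa and 9.33, 10.2 and 9.10 in Con-FMT of set 2. Its difference between the sets was -2.54 with the title column and -2.34 with the description column (limma adjusted p = 0.0104 and 0.0253). In all, 1 gene (0.00882%) differed between the sets with the title column and 2 (0.0176%) with the description column. What separates the sets is not given, so set and any other difference between them cannot be told apart. No group here had the 4 samples needed to look for single outlying libraries.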

How the results depend on the processing

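The number of genes called was sensitive to the filter, the scaling, the removal of GC and length trends, the libraries used and how the spread was estimated. With the title column (3051 genes as reported) it was 1439 with all genes above 0 tested, 1796 after quantile normalization, 669 with GC and length trends taken out and 682 with the replicate block added to that; with the description column (45) it was 22 with array weights. Called both ways (40) were 25 genes with all genes tested and 87 at a threshold of 0.1, an alternative chosen after seeing the data. The fit on the 2 groups alone gave 1, 1 and 0 genes (title, description, both), that on the 4 groups of set 1 gave 2, 1 and 1, and array weights gave 0 and 0 for the title column and both; at an unadjusted p under 0.05 the latter fit held 780 and 205. Leaving out 1 library gave 0 to 6874, 0 to 134 and 0 to 101 genes, with the highest without Sa replicate 1 and 0 without Con-FMT replicate 1. Genes at least 2-fold apart (27) were 42 at a pseudocount of 0.1, 87 at a ratio of 1.5, and 33 to 73 with 1 library left out. Listed genes called both ways (25) were 16 with all genes tested, 0, 1 and 0 in the fits on 2 groups, on 4 groups and with array weights, 16 with trends removed and the block, and 0 to 51 with 1 library left out. Genes differing between the sets (1 and 2) were 2 and 6 with all genes tested, 0 and 1 with array weights, 2 and 0 with the replicate block, 0 and 0 with trends removed with or without the block, and 1 to 6246 and 0 to 3 with 1 library left out. Alone, the replicate block gave 51 genes both ways; replicate numbers did not pair the libraries, since the correlations of same-numbered libraries ran from -0.35 to 0.32. The causes were not tested. Of the named genes' values under the alternatives, 652 kept their direction but no longer passed the threshold, 18 newly passed it, 1670 kept both, and 0 reversed.

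With 2 Sa libraries, 1 of uncertain column, these calls rest on few data, and depth is unknown, so counting error could not be given. The Sa libraries, the title column above all, differ from the Con-FMT libraries in GC or length trends, and library and treatment cannot be fully told apart.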
